A study of Rattus norvegicus with 4 samples.

Results

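Adipokines are signalling proteins that adipose tissue releases into the blood or its own surroundings. The set described here is 8 genes chosen by name for their function: Lep, Adipoq, Retn, Cfd, Rbp4, Nampt, Rarres2 and Apln. All 8 had a row of their own on the array, 1 row each, among 14506 genes measured by a row with a single gene symbol. Their RNA was measured in retroperitoneal fat, a visceral depot, of untreated male rats of the WNIN/Ob strain at 4 months of age. There were 2 lean and 2 obese rats, and each rat gave 1 Affymetrix array. Lean and obese are the phenotypes as labelled. The labels name no allele behind the obesity, so the groups are known by phenotype and not by genotype. All values are RNA levels in whole tissue and not circulating hormone.

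Leptin, encoded by Lep, is made by fat cells in step with their lipid stores and acts on the hypothalamus to curb food intake. Adiponectin, encoded by Adipoq, is an abundant fat cell hormone that sensitises liver and muscle to insulin, and its blood level is usually low in obesity. The remaining genes encode resistin (Retn), the complement protease adipsin (Cfd), the plasma carrier of retinol (Rbp4), the rate-limiting enzyme of NAD salvage also released as visfatin (Nampt), the chemoattractant precursor chemerin (Rarres2) and the vasoactive peptide apelin (Apln).

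The comparison asked which of these genes differ in baseline expression between obese and lean fat. Lep had the largest difference of the 8, with a level 2.94-fold higher in obese fat, and Rbp4 was 1.54-fold higher. The largest difference in the other direction was that of Cfd, 1.77-fold higher in lean fat. For Lep and Rbp4 the groups were separate, with the obese rats the higher. For the other 6 genes the groups overlapped. None of the 8 passed limma's test at an adjusted p under 0.05, and Lep alone had an unadjusted p under 0.05. Over all genes limma called 0.841% (122 of 14506, of which 112 rose and 10 fell), 15.3% had an unadjusted p under 0.05, and 47.7% had groups that did not overlap. The members' counts were thus no higher than this background would give. Values are log2 intensities, differences are obese minus lean. Having only 4 arrays limits the precision, and for 1 gene the exact two-sided permutation p can be no smaller than 0.333.

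**Figure D1:**
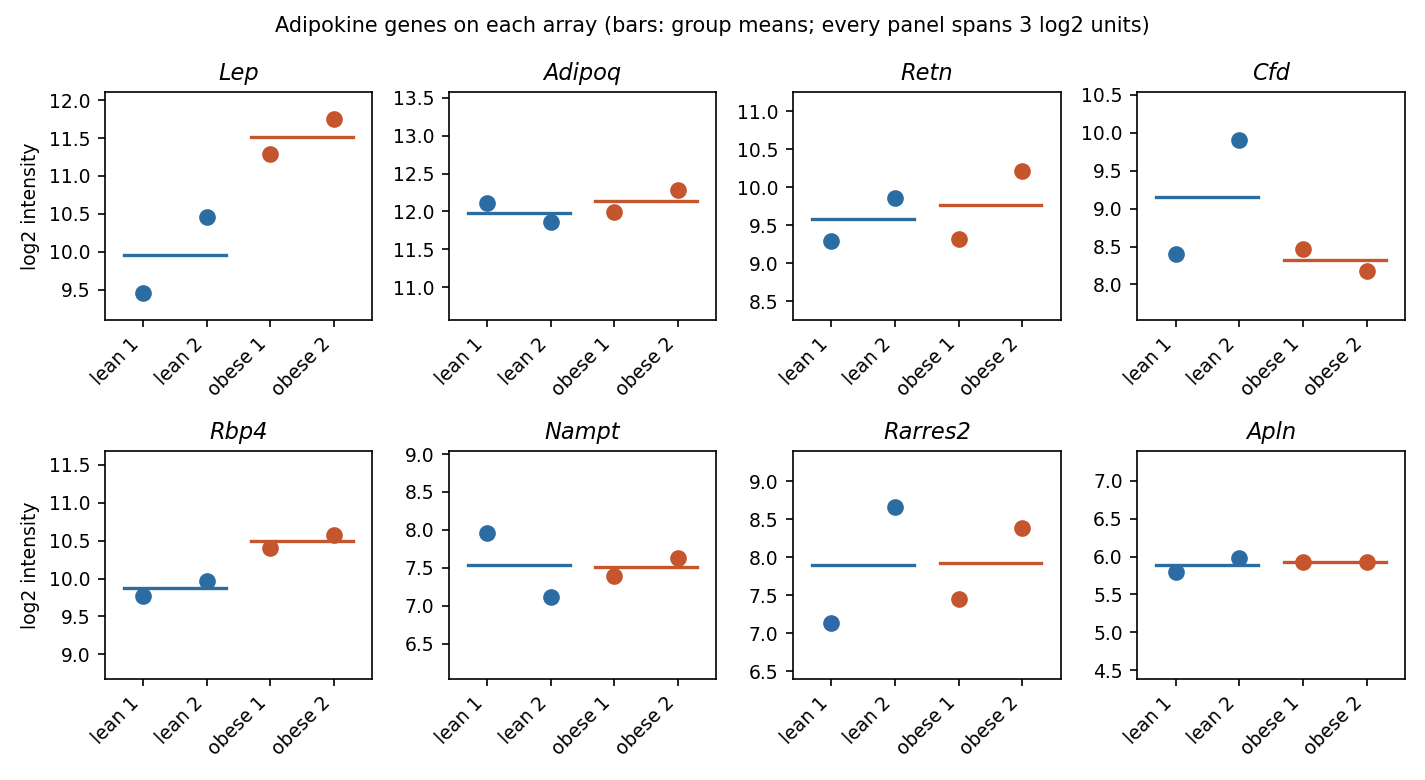
Log2 intensity (vertical axis) of the 8 adipokine genes on each array, with 2 lean rats in blue, 2 obese rats in orange and horizontal bars for the group means. Every panel spans the same range, and the groups are separate for Lep and Rbp4 and overlap for the other 6 genes.

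Markers of the tissue and of its neighbours were read on the same arrays. All 18 adipocyte markers measured, Lep and Adipoq among them, lay above the 95th percentile of 188 olfactory and vomeronasal receptor genes, taken as a background level, on every array. Lean rat 1 stood apart. The mean log2 intensity of 18 skeletal muscle markers was 11.0 there and 5.22 to 5.56 on the other 3 arrays. Lean rat 2 differed in another way, with an interquartile range of log2 values over all rows of 2.24, against 2.63 to 2.77 on the other arrays, and a 95th percentile of the receptor genes of 5.24, against 4.48 to 4.68. Macrophage markers had a mean of 7.68 and 7.84 in the lean rats and 9.58 and 9.05 in the obese rats, and 6 of 19 rose. None of 10 mesothelial markers passed, and their mean was 6.19 in lean rat 1 and 4.77 to 5.23 elsewhere. All 8 adipokine genes lay above the background level on every array, Apln by the smallest margin (0.74 on the log2 scale). In whole tissue, fewer cells of a type and less RNA per cell cannot be told apart.

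**Figure D2:**
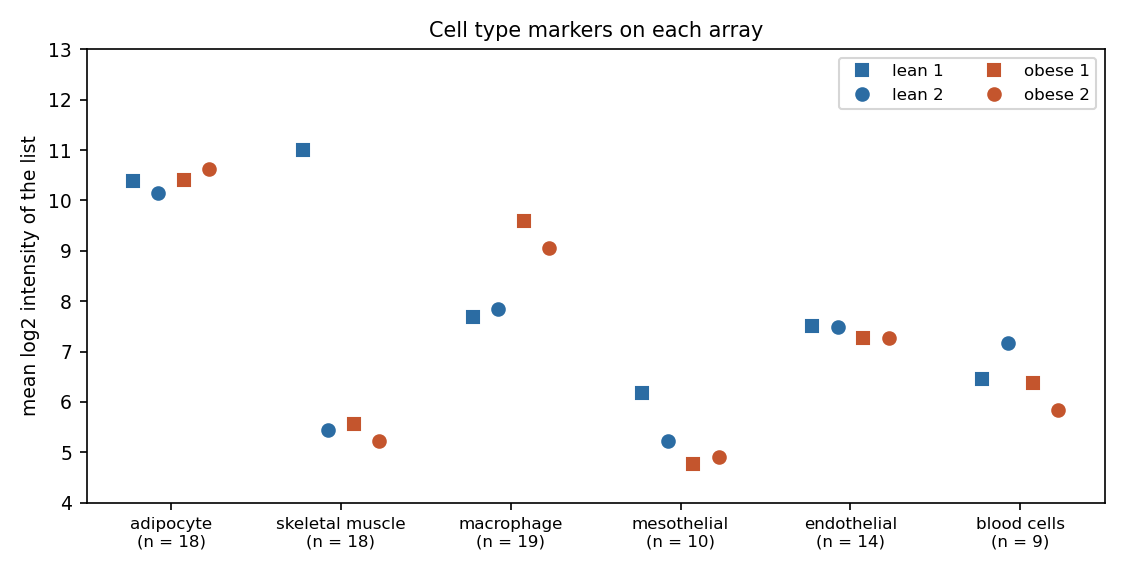
Mean log2 intensity (vertical axis) of 6 marker lists on each array, with lean rats in blue and obese rats in orange, squares for rat 1 and circles for rat 2, and the number of genes measured under each list. Skeletal muscle markers stand at 11.0 in lean rat 1 alone, and macrophage markers lie higher in both obese rats than in both lean rats.

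Lep was at 9.46 and 10.46 in lean rats 1 and 2 and at 11.28 and 11.75 in obese rats 1 and 2, which in linear intensity is 705, 1411, 2493 and 3449. The lowest value was in the rat with the high muscle markers, and the gap between the higher lean rat and the lower obese rat was 0.82. The difference was 1.56 ± 0.41 (SE, n = 2 per group), with a 95% interval of 0.61 to 2.50, an unadjusted p of 0.0052 and a limma adjusted p of 0.145. Of the 14506 genes, 191 had a larger positive difference. The lean rats differed from each other by 1.00 and the obese rats by 0.47. Without lean rat 1 the difference was 1.05 (limma adjusted p = 0.106), so it was present but smaller among the arrays with low muscle markers. Without lean rat 2 it was 2.06 and passed (limma adjusted p = 0.036). Over all 15 alternatives the adjusted p ran from 0.0092 to 0.318.

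Adipoq, in contrast, was at 12.11 and 11.86 in the lean rats and at 11.99 and 12.29 in the obese rats. The groups overlapped, and the difference of 0.15 ± 0.31 (SE, n = 2 per group) was smaller than the spread between rats of a group (limma adjusted p = 0.853). Its 95% interval of -0.56 to 0.87 corresponds to 0.68-fold to 1.82-fold, so a change within those bounds in either direction was not excluded. The sign of the difference turned with quantile normalization (-0.053). The log2 difference of Lep from Adipoq within each array, centred on the mean of the 4 arrays, was -1.33 and -0.076 in the lean rats and 0.62 and 0.79 in the obese rats. The 2 genes thus differed unequally between the groups, by 1.40 or 2.64-fold, and the groups did not overlap (exact permutation p = 0.333, the smallest the design allows). Without lean rat 1 this value was 0.78 and without lean rat 2 it was 2.03.

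Levels of fat cell genes were also read against the other adipocyte markers. The mean of the 16 markers other than Lep and Adipoq was 10.33 and 10.02 in the lean rats and 10.25 and 10.44 in the obese rats, so obese fat was higher by 0.17. The single markers did not move as one, with differences from -1.60 (Adrb3) to 1.20 (Gpd1) around that mean difference. Lep relative to the mean of these markers was -0.87 and 0.44 in the lean rats and 1.03 and 1.31 in the obese rats. Centring every array on these markers, an alternative chosen after the data had been seen, lowers all differences by 0.17. Lep then differed by 1.39 and passed (limma adjusted p = 0.0092, against 0.145 without centring). Relative to its standard error (0.38, against 0.41 without centring) the difference was no larger than before. The pass therefore does not show a clearer difference for Lep. Under that centring 363 genes rose and 281 fell, against 112 and 10 without it. Adipoq then differed by -0.016.

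Rbp4 encodes the protein that carries retinol in plasma and that fat cells and liver release. It was at 9.78 and 9.96 in the lean rats and at 10.41 and 10.58 in the obese rats. Both groups were tight, with rats of a group 0.19 and 0.17 apart, and did not overlap. The difference was 0.62 ± 0.30 (SE, n = 2 per group; 95% interval -0.081 to 1.33), which did not pass (unadjusted p = 0.075, limma adjusted p = 0.374). Leaving out each rat in turn gave values from 0.53 to 0.72.

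The RefSeq promoter windows (build GRCr8, 250 bases before to 50 after the annotated start, written 5′ to 3′ on the gene's strand) are shown for Lep and Rbp4, whose groups were separate, and for Adipoq, whose groups overlapped. The windows are chr4:58626288-58626587 on the plus strand for Lep, chr1:245313502-245313801 on the minus strand for Rbp4 and chr11:91240120-91240419 on the minus strand for Adipoq. Capitals mark matches on either strand to 4 motifs. They are TATAA, the core of the box that positions transcription starts, CCAAT, the motif of the factor NF-Y, GGGCGG, the motif of Sp1 and its relatives, and TTGCGCAA, a palindrome bound by C/EBP factors, which regulate fat cell differentiation.
Lep: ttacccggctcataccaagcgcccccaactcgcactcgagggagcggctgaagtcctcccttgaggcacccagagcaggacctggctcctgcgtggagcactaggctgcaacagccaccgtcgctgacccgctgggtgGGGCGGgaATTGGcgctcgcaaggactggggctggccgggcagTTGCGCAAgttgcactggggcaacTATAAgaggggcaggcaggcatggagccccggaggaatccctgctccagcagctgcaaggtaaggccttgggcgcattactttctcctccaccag
Rbp4: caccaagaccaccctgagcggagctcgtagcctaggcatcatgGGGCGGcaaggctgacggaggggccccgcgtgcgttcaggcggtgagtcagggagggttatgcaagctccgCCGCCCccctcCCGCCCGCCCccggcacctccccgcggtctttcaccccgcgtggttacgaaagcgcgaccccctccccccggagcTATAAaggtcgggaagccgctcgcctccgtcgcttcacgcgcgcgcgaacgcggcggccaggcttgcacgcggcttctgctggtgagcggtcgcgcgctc
Adipoq: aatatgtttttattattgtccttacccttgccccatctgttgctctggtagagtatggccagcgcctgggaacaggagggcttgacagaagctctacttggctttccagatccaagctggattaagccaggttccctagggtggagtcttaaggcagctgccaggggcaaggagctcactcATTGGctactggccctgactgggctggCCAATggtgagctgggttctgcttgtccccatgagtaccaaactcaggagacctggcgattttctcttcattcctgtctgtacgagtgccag

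The Lep window held all 4 motifs, with TTGCGCAA beginning 69 bases and TATAA 45 bases before the start. TTGCGCAA was present in 0.17% of 33469 promoter windows of the same length, and among the 7 members with a window it was found in Lep only. TATAA was in 26.2% of windows and, of the members, in Lep and Rbp4. Rbp4 had 4 matches to GGGCGG, of which 2 overlap, and this motif was in 33.1% of windows and 5 of the 7. CCAAT was in 37.5% of windows, and of the members in Lep and Adipoq, the latter with 2 matches 69 and 42 bases before the start. These matches describe letters in a window and not binding.

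Retn encodes resistin, a cysteine-rich hormone that rodent fat cells secrete and that opposes insulin action. It was at 9.29 and 9.86 in the lean rats and at 9.32 and 10.22 in the obese rats. Rat 2 of each group was the higher, and the ranges of the groups overlapped in part. The difference was 0.19 ± 0.40 (SE, n = 2 per group; limma adjusted p = 0.857), with values on both sides of 0 when a rat was left out (-0.26 to 0.64).

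Cfd encodes adipsin, a serine protease abundant in fat cells that starts the alternative complement pathway by cleaving factor B. It was at 8.40 and 9.90 in the lean rats and at 8.47 and 8.18 in the obese rats. Lean rat 2 stood alone, 1.50 above lean rat 1, while lean rat 1 lay between the obese rats. The difference was -0.83 ± 0.48 (SE, n = 2 per group; 95% interval -1.94 to 0.29), with a limma adjusted p of 0.453. Without lean rat 1 it was -1.58 and passed (limma adjusted p = 0.043), and without lean rat 2 it was -0.075 (over all alternatives the adjusted p ran from 0.043 to 0.938). The value therefore rested on a single lean rat.

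Rarres2 encodes prochemerin, which proteases cut to chemerin, an attractant for macrophages and dendritic cells. It was at 7.13 and 8.66 in the lean rats and at 7.45 and 8.39 in the obese rats. The lean values enclosed the obese values, and the means differed by 0.023 ± 0.53 (SE, n = 2 per group; limma adjusted p = 0.991). This was the widest standard error of the 8 genes, and the 95% interval of -1.20 to 1.25 did not exclude differences of over 2-fold either way. Leaving out each rat in turn gave differences from -0.74 to 0.79.

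Nampt was at 7.95 and 7.12 in the lean rats and at 7.39 and 7.63 in the obese rats. The lean rats again enclosed the obese rats, with lean rat 1 the highest array of the 4. The difference was -0.028 ± 0.35 (SE, n = 2 per group; limma adjusted p = 0.982). It was 0.39 without lean rat 1 and -0.45 without lean rat 2. Lean rat 1 was also the array with the high muscle markers, and their part in this value was not tested.

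Apln was at 5.80 and 5.98 in the lean rats and at 5.93 in both obese rats. All 4 arrays lay within 0.18 of each other, the obese rats within the lean range. The difference was 0.045 ± 0.24 (SE, n = 2 per group; limma adjusted p = 0.951), and its 95% interval of -0.51 to 0.60 was the narrowest of the 8. Its level was also the nearest of the 8 to background.

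**Figure D3:**
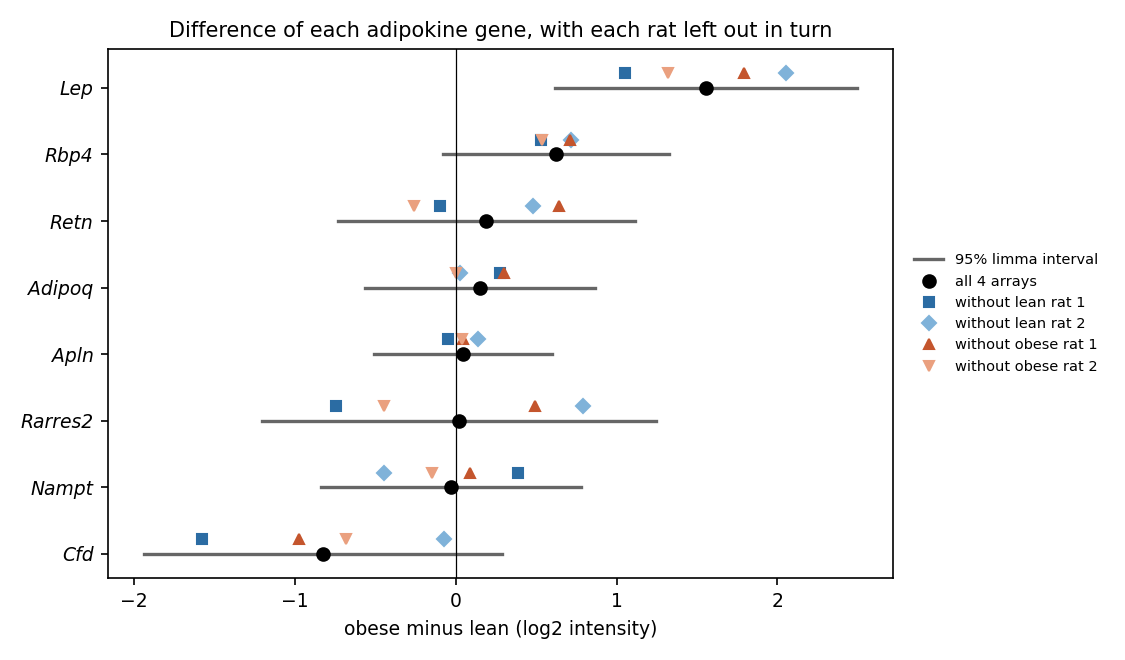
Difference between obese and lean fat (horizontal axis, log2 intensity) for the 8 adipokine genes over all 4 arrays (black, with the 95% interval from limma) and with each rat left out in turn (coloured symbols). Lep stayed between 1.05 and 2.06 and Rbp4 between 0.53 and 0.72, whereas Retn, Rarres2, Nampt and Apln took values on both sides of 0.

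Across the 8 genes the median difference was 0.098, beside 0.00047 over all genes, and 6 of 8 had a higher mean in obese fat. The median absolute difference was 0.17 for the members and 0.29 for all genes. The lean rats differed from each other by a median of 0.70 in these genes, against 0.36 over all genes, and the obese rats by 0.30 against 0.21. Within the lean group these genes were thus farther apart than the median gene.

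The profiles most like that of Lep over the 4 arrays, after each profile was centred on its own mean, were those of Plek, Grifin and Cthrc1. Plek encodes pleckstrin, a protein of blood cells, and Cthrc1 a secreted glycoprotein. Their root mean square differences from Lep were 0.14, 0.16 and 0.17, and 6 of the 7252 other genes at or above the median level came within 0.2. Plek was at 4.90 and 6.21 in the lean rats and at 6.68 and 7.23 in the obese rats, the same order of rats as Lep. For Rbp4 the nearest were Rnf41, Bst1 and Atp5po at 0.016, 0.028 and 0.032, and 905 genes came within 0.2. The profiles were not scaled to a common spread, so these counts follow the size of a gene's differences as well as their order. Within the same 0.2 came 1819 genes for Apln, which varied little, and 5 for Cfd. With 4 arrays this likeness is a description with no test.

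Receptors and downstream genes were read from lists written with earlier results of these data known. The leptin receptor gene Lepr shares its row with another symbol and was not used here. None of 13 leptin signalling genes passed (median 0.13). Leprotl1, a relative of the endosomal protein that limits leptin receptor at the cell surface, was at 7.46 and 6.96 in the lean rats and 8.44 and 8.32 in the obese rats. Its difference was 1.17 ± 0.31 (SE, n = 2 per group; limma adjusted p = 0.144). Without lean rat 1 it was 1.43 and passed (limma adjusted p = 0.041, range over alternatives 0.041 to 0.566). The adaptor Grb2 was at 0.57, or at 0.19 when its rows were averaged in place of taking the brightest.

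None of 13 genes of adiponectin assembly and response passed (median 0.23). For 7 the obese rats were both above the lean rats and for none both below, where 26.4% of all genes were above and 21.3% below. Such counts for the other lists, which did not all lean this way, are given with the NAD list. The receptor gene Adipor2 was at 8.61 and 8.08 in the lean rats and 9.21 and 9.29 in the obese rats, a difference of 0.90 ± 0.32 (SE, n = 2 per group; limma adjusted p = 0.257). Adipor1, the other receptor, was at 0.39 (0.14 without lean rat 2 and 0.63 without lean rat 1), and Cdh13, the cadherin that binds adiponectin multimers, at 0.23 (0.11 without obese rat 2 and 0.34 without obese rat 1). Plod1, a lysyl hydroxylase, had the smallest p of the list and was at 0.93.

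Among 7 C1q/TNF-related proteins, which are structural relatives of adiponectin, C1qtnf1 rose and the other 6 did not pass. C1qtnf1 was at 6.92 and 7.33 in the lean rats and at 9.73 and 9.13 in the obese rats. The groups did not overlap, and the rise was 2.30 ± 0.34 (SE, n = 2 per group; limma adjusted p = 0.028). With quantile normalization it was 2.12 and did not pass (limma adjusted p = 0.067).

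In the complement list, C3ar1 rose and the other 7 genes did not pass. It encodes the receptor for C3a, a fragment released in the cascade that adipsin starts, and was at 7.11 and 6.84 in the lean rats and 8.65 and 8.71 in the obese rats. The rise of 1.70 ± 0.29 (SE, n = 2 per group; limma adjusted p = 0.045) did not pass in 7 of 15 alternatives, among them without obese rat 1 (1.73, limma adjusted p = 0.054) and without obese rat 2 (1.67, limma adjusted p = 0.055). C3ar1 is known from myeloid cells, and the mean of the macrophage markers was also higher in obese fat (7.68 and 7.84 in lean, 9.58 and 9.05 in obese fat). The single markers did not move as one, with differences from -0.054 (Cd163) to 3.92 (Lyz2). Their part in this result was not tested.

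Of 36 other secreted factors of adipose tissue, Angptl8 rose and 35 did not pass (median -0.053). Angptl8 encodes a feeding-induced protein of fat and liver that helps to set lipoprotein lipase activity. It was at 6.69 and 6.98 in the lean rats and at 9.66 and 9.20 in the obese rats, and rose by 2.59 ± 0.31 (SE, n = 2 per group; limma adjusted p = 0.018). It passed in all 15 alternatives, with values from 2.36 to 2.83.

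None of the remaining lists had a gene that passed. In the resistin list (6 genes, median -0.27) Retnlg, a resistin-like gene of myeloid cells, was at -1.06, the resistin-binding protein gene Cap1 at 0.74 (0.46 without lean rat 2) and Tlr4, a proposed resistin receptor, at 0.40 (0.23 without obese rat 2). For Retnlg, leaving out lean rat 1 gave -1.62, lean rat 2 -0.49, obese rat 1 -0.54 and obese rat 2 -1.58. In obese rat 1 Retnlg was at 4.05, below the background level of that array (4.48). In the retinol list (16 genes, median -0.14) the retinaldehyde dehydrogenase gene Aldh1a1 was at 7.15 and 5.10 in the lean rats and 4.16 and 4.20 in the obese rats. Its difference of -1.95 ± 0.56 (SE, n = 2 per group; limma adjusted p = 0.186) was -2.97 without lean rat 2 and -0.92 without lean rat 1. In lean rat 2 and both obese rats Aldh1a1 lay below the background level of the array (5.24, 4.48 and 4.55). Lean rat 1 alone was above it. The mean of the mesothelial markers was also highest in lean rat 1 (6.19), though not every marker followed. Krt19 was at 8.53 in lean rat 1 and 4.62 in lean rat 2, while Wt1 was at 5.42 and 5.83. The part of these markers was not tested. Crabp2, a carrier of retinoic acid, was at -0.66, and Stra6, the membrane receptor for retinol-bound Rbp4, at -0.026. Stra6 was near the background level, at 5.13 in lean rat 2 against 5.24.

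In the NAD list (13 genes, median 0.25) the obese rats were both above the lean rats for 8 genes and both below for none, against the 26.4% and 21.3% of all genes. Other lists had counts above and below of 1 and 6 (retinol), 2 and 2 (resistin) and 3 and 3 (chemerin). Those of leptin signalling had 5 and 2, complement 4 and 2, C1q/TNF-related proteins 2 and 1 and apelin 2 and 0. The other secreted factors had 8 and 8. Qprt, which makes nicotinic acid mononucleotide from quinolinate, was at 5.00 and 5.08 in the lean rats and 7.22 and 6.20 in the obese rats (1.67 ± 0.35, SE, n = 2 per group; limma adjusted p = 0.084). In lean rat 2 Qprt lay below the background level of the array (5.24), and in lean rat 1 it was near it (4.68). Without obese rat 2 it was 2.18 and passed (limma adjusted p = 0.00034, range over alternatives 0.00034 to 0.294). Bst1, an ectoenzyme that cleaves NAD, was at 0.58. Nampt, the enzyme that feeds this pathway from nicotinamide, was at -0.028 as given above.

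In the chemerin list (12 genes, median -0.040) the signalling receptor Cmklr1 was at 7.71 and 7.65 in the lean rats and 8.15 and 8.23 in the obese rats, a difference of 0.51. The second chemerin receptor Cmklr2 was at -0.32 (-0.15 without lean rat 2 and -0.48 without lean rat 1). Its level was near background, at 4.52 in obese rat 2 against 4.55. The proteases Ctsk and Ctsl were at 1.14 and 0.72. Ctsk passed without lean rat 1 (1.62, limma adjusted p = 0.035, range over alternatives 0.035 to 0.660) and was 0.66 without lean rat 2, while Ctsl was 0.44 without lean rat 1. In the apelin list (5 genes, median 0.25) the receptor Aplnr was at 0.25 (0.15 without obese rat 1) and Agtrap, a binding partner of the angiotensin receptor, at 0.39 (0.19 without obese rat 1).

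**Figure D4:**
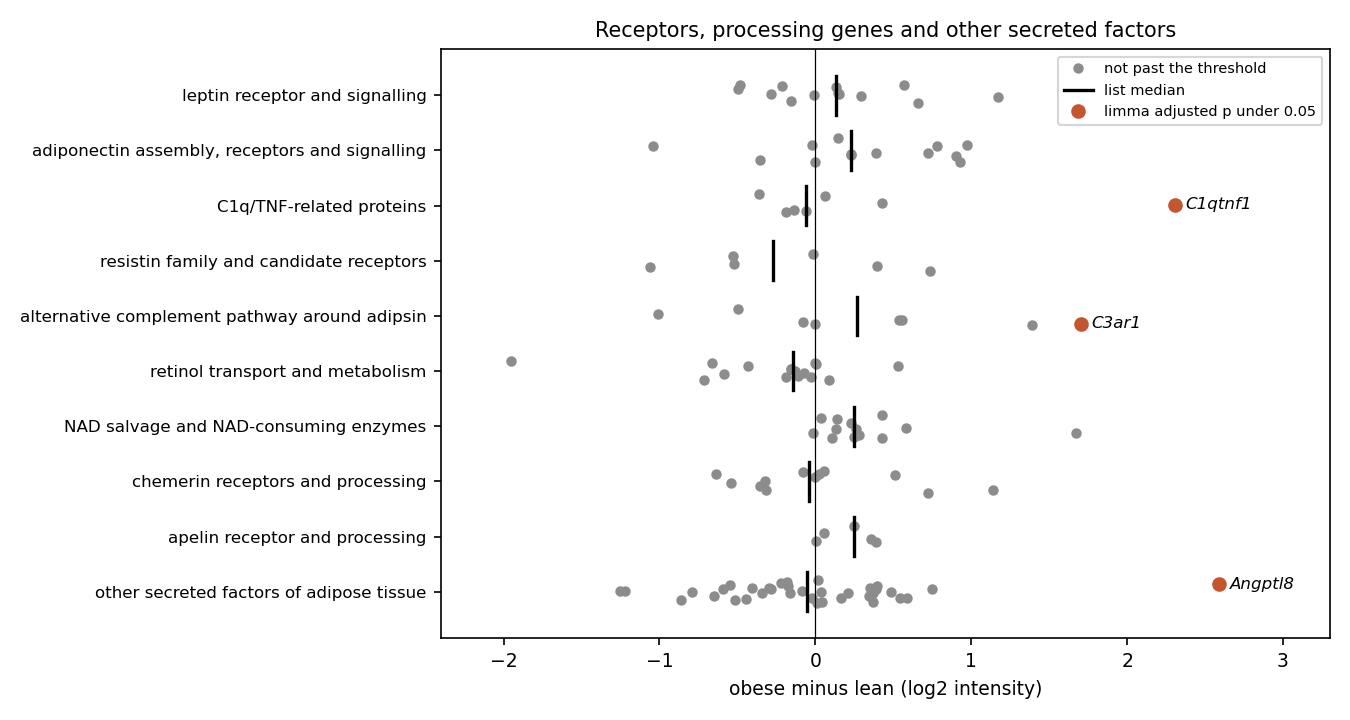
Difference between obese and lean fat (horizontal axis, log2 intensity) for each gene of 10 lists around the adipokines, with the list median as a black line and genes at a limma adjusted p under 0.05 in orange. C1qtnf1, C3ar1 and Angptl8 passed, at 2.30, 1.70 and 2.59, and the list medians lay between -0.27 and 0.27.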

How the data were processed

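Per the labels' protocols, Trizol extracts of 500 mg of frozen fat per rat were made and 100 ng of RNA was amplified and labelled. The authors deposited linear intensities for each row and array. The submitters' processing notes name RMA; its software, version and genome build: not given in the sources used here. RMA includes quantile normalization of probes, but the deposited array distributions still differed, as given for lean rat 2.

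Intensities were converted to log2 with no pseudocount. Rows were named through the platform annotation: 15310 of 29214 had 1 symbol, and for a gene with several rows that with the highest mean was kept. The phenotypes were compared in R 4.3.3 with limma 3.58.1 (lmFit, then eBayes with trend on, no covariates) over 14506 genes, with Benjamini-Hochberg adjustment over all of them and a threshold of 0.05. Errors are limma's moderated standard errors. On simulated, independent arrays the fit returned planted differences on average, a check that does not bear on the calls made here.

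The members, the lists and the naming rule were chosen with earlier results of these data known. All members, their receptors and each list's called genes, or else the 2 with the smallest p, are named, with the 3 genes most like each member whose groups did not overlap. The alternatives tried were a block for the rat number, other scalings, offsets, variance models, filters and row choices, and each rat left out. Promoters came from RefSeq (7 of 8 members matched, not Nampt). Figures were drawn with matplotlib 3.10.9.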

Additional observations from a re-analysis of the deposited data

How the results depend on the processing

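Of 120 results for the 8 members under 15 alternatives, 103 kept their direction and their side of the threshold. The count of members passing, 0 of 8, was 1 (Lep) with the rat number as a replicate block, 1 (Lep) relative to adipocyte markers and 0 to 1 with a rat left out (Cfd without lean rat 1, Lep without lean rat 2). The count of all genes passing, 122, was 327 with the replicate block, 75 with quantile normalization, 262 with a robust variance model, 185 over all rows of the table (48.1% of them higher, against 91.8% of the 122), 644 relative to adipocyte markers and 268 to 1081 with a rat left out. The differences between rat 1 and rat 2 in the lean and in the obese group correlated across genes with r = 0.020, which gave no sign of pairing. Lean rats 1 and 2 each stood apart in other ways, so this value cannot exclude a pairing. No label pairs the rats, so the block result (Lep 1.56, limma adjusted p = 0.034) is not read as a paired comparison. Signs turned with quantile normalization for Adipoq (-0.053), Rarres2 (-0.14) and Stra6 (0.12), with centring on array medians for Nampt (0.070) and Stra6 (0.072), and relative to adipocyte markers for Adipoq (-0.016), Rarres2 (-0.14) and Apln (-0.12). With a rat left out, values ran from -0.26 to 0.64 for Retn, -0.45 to 0.39 for Nampt, -0.74 to 0.79 for Rarres2, -0.048 to 0.14 for Apln and -0.23 to 0.18 for Stra6. The causes were not tested. Of 420 results for the other named genes, 387 kept direction and side, 8 no longer passed, 22 newly passed and 3 reversed. A fit with a rat left out has 1 group of a single array, whose spread is assumed to be that of the other group, so calls gained there carry little weight.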

Other observations

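The profiles of Cfd and Rarres2 were also compared with those of other genes, a choice made after their values were seen. Within a root mean square difference of 0.2 came 5 genes for Cfd and 3 for Rarres2. The genes nearest to Cfd over the 4 arrays were the chemokine gene Cxcl1, the immediate early gene Egr1 and the chemokine gene Ccl2. Cxcl1 was at 6.47 and 7.94 in the lean rats and 6.26 and 6.15 in the obese rats. Egr1 was at 7.31 and 8.89 in the lean rats and 7.38 and 7.45 in the obese rats. Ccl2 was at 7.80 and 9.56 in the lean rats and 8.35 and 7.83 in the obese rats. In each of them lean rat 2 was the highest array, by more than 1 on the log2 scale, as it was for Cfd. The genes nearest to Rarres2 were Ndufa1, a respiratory chain subunit, Higd2a, a mitochondrial membrane protein, and Sec61g, a subunit of the protein channel of the endoplasmic reticulum. Ndufa1 was at 6.80 and 8.35 in the lean rats and 7.34 and 8.32 in the obese rats, so rat 2 was the higher in both groups, as for Rarres2. No test was made of these likenesses.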
